A study of Mus musculus with 7 samples.

Results

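Neutrophils of the mouse lung were described in 10x Genomics single-cell RNA libraries from 3 Smad4fl/fl and 4 Smad4iko mice. The Smad4iko mice carried the floxed Smad4 alleles together with Rosa26-creERT2, a tamoxifen-activated Cre recombinase expressed from a locus active in most cell types. Both groups received 5 intraperitoneal tamoxifen injections of 75 mg/kg from postnatal day 21 to day 26, and peripheral lung was digested at 8 weeks of age. The Smad4fl/fl mice were littermates without Cre. Carrying Cre and losing Smad4 therefore cannot be told apart in this design, and loss in the neutrophils themselves cannot be told apart from loss in other cells. Each library is labelled as a separate mouse sample, and no label gives the sex. Xist and Ddx3y put 2 females among the libraries, Smad4fl/fl 3 and Smad4iko 3, and 5 males.

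Neutrophils were the barcodes, among those with at least 600 UMIs (unique molecular identifiers, each standing for 1 captured RNA molecule), at least 300 genes and at most 20% mitochondrial UMIs, that held at least 20 UMIs of S100a8 plus S100a9 and at least 2 of Csf3r, Cxcr2, Il1r2, Retnlg and Hdc together. Barcodes with more than 1 UMI of Cd3d, Cd3e and Cd3g, of Cd79a, or of C1qa and Marco were left out. This gave 7344 neutrophils among 50955 kept barcodes, of 55671 in all. Cells were thus selected on the UMIs of these genes, which are described below without a test. Only 74 otherwise eligible barcodes held 15 to 19 UMIs of S100a8 plus S100a9, and 48 neutrophils held 20 to 24. For the other marker group, 11 barcodes held 1 UMI and 14 neutrophils held 2.

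Neutrophils are short-lived granulocytes made in the bone marrow. They fill their granules in sequence during development: primary granule genes such as Mpo and Elane are transcribed first, secondary granule genes such as Ltf, Camp and Ngp later, and receptors for chemoattractants appear in the mature cell. The lung holds a large pool of them in its capillaries. Activated neutrophils transcribe Il1b, Cxcl2 and other NF-kB targets, and a separate program follows type I interferon. Smad4 is the shared partner of the receptor-activated Smads, which carry TGF-beta and BMP signals to the nucleus.

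The 7 libraries held 46449235 to 66557262 UMIs in all, of which the neutrophils gave 1046567 to 8335414. The median neutrophil held 2119 to 3647 UMIs in the 7 libraries, against 4786 to 7144 in the other kept barcodes. Of the neutrophils, 164 (2.23%) were predicted doublets, and 6 of their barcodes occurred in more than 1 library. All 5 marker genes were detected, and their summed level was 17227 to 88369 CPM (UMIs of a gene scaled by the library's summed neutrophil UMIs), against 60.1 to 1945 CPM in T cells of the same libraries. T cell markers stood at 8.16 to 34.9 CPM in neutrophils. Both follow from the selection and do not check the label. Genes of late neutrophil maturation that the selection did not use, among them Mmp9 and Slpi, made up 1.94% to 2.50% of neutrophil UMIs and 0.0636% to 0.111% of T cell UMIs. In 262 cells, in clusters led by genes of monocytes, alveolar macrophages, natural killer cells, endothelium or platelets, the leading genes went against the label. Genes named below whose groups separated only with those cells are given with their values without them.

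Markers of other cell types were also detected. The 6 alveolar macrophage markers summed to 1051 to 2145 CPM in neutrophils, 883 to 2245 CPM without the 262 cells and 282 to 579 CPM in T cells. Most of this was Ctsd, a lysosomal protease, at 951 to 2073 CPM, while Marco stood at 1.32 to 3.20 CPM. Natural killer markers ranged from 22.0 to 694 CPM, and from 3.60 to 43.9 CPM without the 262 cells. Epithelial markers ranged from 52.1 to 1445 CPM, beside 98.7 to 1562 CPM in T cells. Of the 5 eosinophil markers, only Epx was at 0 in every library. Their sum was 7.35 to 11.1 CPM in Smad4fl/fl and 13.4 to 18.7 CPM in Smad4iko, without overlap, and 8.50 to 17.0 CPM over all libraries without the 262 cells. Siglecf stood at 4.68 to 15.02 CPM and Ccr3 at 1.91 to 3.77 CPM. The part of other cell types in the results below was not tested beyond leaving out those 262 cells.

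The calprotectin genes S100a8 and S100a9 took up very different parts of the neutrophil RNA. Together they made up 4.15%, 9.67% and 9.29% of neutrophil UMIs in Smad4fl/fl 1 to 3 and 14.3%, 20.04%, 18.4% and 16.8% in Smad4iko 1 to 4. Every Smad4iko library lay above every Smad4fl/fl library. The median neutrophil held 97.5, 169 and 291 UMIs of this pair in Smad4fl/fl and 438, 705, 490 and 389 in Smad4iko, while the median T cell held 0 to 3. Since CPM values add up to a fixed total, a larger S100 part lowers the CPM of all other genes. The scaling factors of the fits below were 0.78 to 1.16 and followed the S100 part only in part. The lowest factor, 0.78, was that of Smad4iko 2, with 20.04%, and Smad4fl/fl 1, with 4.15%, had 1.122. Smad4iko 3, with 18.4%, had 1.002 and Smad4iko 4, with 16.8%, had the highest, 1.157.

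The other genes used for the choice did not all follow. Retnlg, a secreted resistin-like protein of mature mouse neutrophils, stood at 2498, 3214 and 2927 CPM in Smad4fl/fl and at 4252, 6789, 7247 and 8246 CPM in Smad4iko, without overlap. Csf3r, the receptor for the growth factor G-CSF, stood at 1166, 1338 and 1499 against 1111, 1034, 1337 and 1575 CPM, which overlapped. Cxcr2, the receptor for Cxcl1 and Cxcl2, ranged from 214 to 738 CPM in Smad4fl/fl and from 450 to 1036 CPM in Smad4iko. Il1r2, the decoy receptor for interleukin-1, was lowest in Smad4iko 3 and 4, at 572 and 772 CPM, against 1739 to 2504 CPM in the other 5 libraries.

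Neutrophils made up 3.82% (95% Clopper-Pearson interval 3.41 to 4.26), 8.36% (7.73 to 9.02) and 14.2% (13.4 to 15.01) of kept barcodes in Smad4fl/fl 1 to 3. In Smad4iko 1 to 4 they made up 15.7% (14.8 to 16.6), 30.9% (29.8 to 32.1), 17.5% (16.7 to 18.3) and 12.3% (11.5 to 13.1). These intervals cover counting error only. Smad4iko 2 was highest by a wide margin, and Smad4fl/fl 3 lay above Smad4iko 4, so the groups overlapped. The means were 8.79% ± 5.20 (SD, n = 3) and 19.1% ± 8.19 (SD, n = 4), a difference of 10.3 percentage points. The exact permutation test (two-sided, 35 arrangements of the 7 libraries) gave p = 0.114, and it cannot go below 0.0286. A higher share of neutrophils and a loss of other cells during digestion cannot be told apart.

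**Figure D1:**
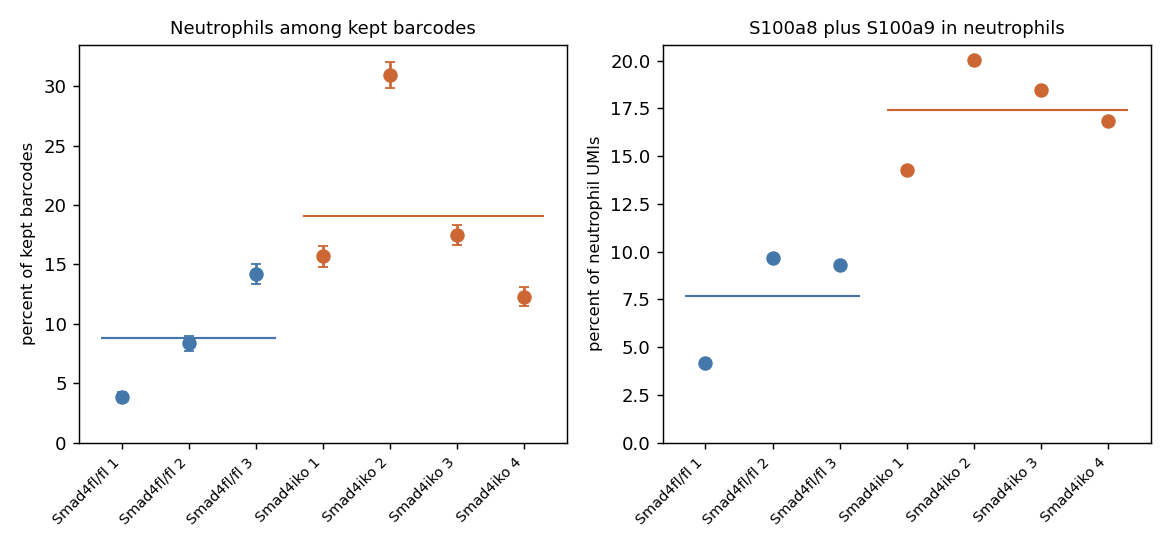
Neutrophils as a percent of kept barcodes (left, with 95% Clopper-Pearson intervals) and S100a8 plus S100a9 as a percent of neutrophil UMIs (right) in each library. Lines are group means. The shares overlap between the groups, while the 4 Smad4iko libraries (14.3% to 20.04%) lie above the 3 Smad4fl/fl libraries (4.15% to 9.67%) in the S100 part.

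The maturation state was read from granule genes. To compare libraries of different depth, each neutrophil was thinned to 600 UMIs, and a cell was counted as past the threshold for a gene list when it held at least 3 of the list's UMIs. Primary granule genes (Mpo, Elane, Prtn3, Ctsg, Ms4a3, Bpi) were too low for any of the 6 to be tested, and 0% of cells passed in each library. Cell cycle genes passed in 0.0681% to 0.479% of cells. At this depth dividing precursors were not detectable as a group in any library.

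Secondary granule genes were higher in all 4 Smad4iko libraries as a list, though not past the adjusted threshold. The list (Ltf, Camp, Ngp, Lcn2, Chil3, Cd177, Mmp8, Orm1, Itgb2l, Ifitm6, Olfm4 and Wfdc21) was past the threshold in 6.82%, 8.99% and 11.6% of Smad4fl/fl neutrophils and in 20.4%, 46.2%, 44.5% and 32.1% of Smad4iko neutrophils. The groups did not overlap. The means were 9.12% ± 2.37 (SD, n = 3) and 35.8% ± 12.01 (SD, n = 4), with an exact permutation p of 0.0571 and an adjusted p of 0.200 over the 7 lists tested. T cells of the same libraries passed at 0.491% to 2.17%. Lcn2 and Wfdc21 were the most abundant genes of the list in every library but Smad4iko 1. In Smad4iko 2 they stood at 1638 and 2995 CPM, beside 33.5, 23.0 and 237 CPM for Camp, Ltf and Ngp. In Smad4iko 1 they stood at 1637 and 1298 CPM, beside 1607, 271 and 1507 CPM. The part of granule stage in the list score was not tested. Taken as a percent of all neutrophil UMIs, an alternative added after the data were seen, the list made up 0.108%, 0.219% and 0.270% in Smad4fl/fl and 0.744%, 0.592%, 0.598% and 0.823% in Smad4iko, with an exact permutation p of 0.0286 and an adjusted p of 0.0667.

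Within this list, the genes did not share 1 pattern. Lcn2, the iron-siderophore binding protein lipocalin-2, stood at 414, 610 and 703 CPM in Smad4fl/fl and at 1637, 1638, 1722 and 1906 CPM in Smad4iko. Its log2 difference was 1.68 ± 0.29 (SE; edgeR adjusted p = 0.262), and T cells held 0.806 to 38.5 CPM. Cd177, a surface protein of neutrophils, stood at 5.73, 22.7 and 25.8 against 59.3, 50.0, 48.2 and 93.3 CPM. Every Smad4iko library again lay above every Smad4fl/fl library for both genes.

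The classical secondary granule genes instead varied from library to library. Camp, the antimicrobial peptide cathelicidin, stood at 1.91, 171 and 272 CPM in Smad4fl/fl and at 1607, 33.5, 123 and 916 CPM in Smad4iko. Ltf, lactoferrin, stood at 14.3, 49.5 and 79.2 against 271, 23.0, 29.2 and 236 CPM. Ngp, neutrophilic granule protein, stood at 9.55, 344 and 360 against 1507, 237, 405 and 1450 CPM. For all 3 genes Smad4iko 1 and 4 were high and Smad4iko 2 and 3 lay within or near the Smad4fl/fl range, so the groups overlapped. Orm1, an acute-phase glycoprotein, was at 0, 0 and 0.983 against 13.2, 2.28, 3.29 and 4.46 CPM, from 106 UMIs in all. Chil3, a chitinase-like protein also made by alveolar macrophages, stood at 85.0, 56.2 and 222 against 529, 271, 366 and 380 CPM, but T cells held 107 to 398 CPM of it, so its level in neutrophils lay partly within that background. Without the 262 cells led by other cell types Chil3 stood at 67.5, 24.0 and 66.4 against 264, 37.2, 68.7 and 163 CPM, which overlapped.

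All 12 secondary granule genes were tested across the transcriptome, and all 12 were higher on average in Smad4iko, with a median log2 difference of 1.75 against -0.05 over the 9237 genes tested. Of the 12, 6 did not overlap (Lcn2, Chil3, Cd177, Orm1, Ifitm6 and Wfdc21), beside 2.81% of all tested genes that lay higher without overlap. Without the 262 cells the other 5 still did not overlap, beside 2.68% of 7645 genes tested, and Chil3 did. None passed edgeR's quasi-likelihood test after adjustment, as for 0% of all genes, and 7 had an unadjusted p under 0.05, beside 3.67% of all genes in that direction. DESeq2, run as an alternative, called Lcn2, Cd177, Ifitm6 and Wfdc21, beside 0.563% of 7635 genes.

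Promoter windows are shown for 1 gene each of the secondary granule, inflammatory and interferon-stimulated lists, whose levels are given here and below, with the letters of a commonly used motif in capitals. Windows are the RefSeq sequences of build GRCm38.p6, from 250 bases before to 50 after the annotated start, on the gene's strand. For Lcn2 (chr2:32387690-32387989, minus strand) the capitals mark TTNNGNAA on the opposite strand, letters bound by C/EBP factors. For Cxcl2 (chr5:90903649-90903948, plus strand) they mark GGNNNTTCC on the printed strand, letters bound by NF-kB, which occur at 2 places. For Rsad2 (chr12:26456403-26456702, minus strand) they mark GAAANNGAA on the opposite strand, letters of the interferon-stimulated response element.
Lcn2: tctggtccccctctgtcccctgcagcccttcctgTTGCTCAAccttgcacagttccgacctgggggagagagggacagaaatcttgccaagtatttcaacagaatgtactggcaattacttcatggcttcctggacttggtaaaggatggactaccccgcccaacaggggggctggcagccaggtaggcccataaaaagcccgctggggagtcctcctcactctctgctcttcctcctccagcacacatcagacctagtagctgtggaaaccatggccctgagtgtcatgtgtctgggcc
Cxcl2: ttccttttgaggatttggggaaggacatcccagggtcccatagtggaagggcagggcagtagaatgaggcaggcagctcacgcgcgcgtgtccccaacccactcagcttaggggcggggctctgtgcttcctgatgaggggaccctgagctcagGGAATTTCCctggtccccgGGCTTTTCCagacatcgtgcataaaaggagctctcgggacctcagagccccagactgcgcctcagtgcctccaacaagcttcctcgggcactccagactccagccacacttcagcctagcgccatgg
Rsad2: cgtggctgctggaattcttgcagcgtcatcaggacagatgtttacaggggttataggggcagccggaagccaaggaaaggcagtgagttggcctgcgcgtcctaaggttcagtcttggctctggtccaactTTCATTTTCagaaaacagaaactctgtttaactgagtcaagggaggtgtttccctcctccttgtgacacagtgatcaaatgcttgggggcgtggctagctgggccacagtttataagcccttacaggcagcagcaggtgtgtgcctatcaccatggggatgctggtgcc
On either strand, TTNNGNAA occurred in 9 of 10 secondary granule and 14 of 21 interferon-stimulated windows. It occurred in 9 of 19 inflammatory and 6 of 13 late maturation windows, and in 40.8% of 27025 windows of all genes. GGNNNTTCC occurred in 12 of 19 windows of the inflammatory list, in 10 of 21 interferon-stimulated, 3 of 10 secondary granule and 4 of 13 late maturation windows, and in 18.4% of all windows. GAAANNGAA occurred in 12 of 21 interferon-stimulated windows and in 8.56% of all windows. It occurred in 2 of 10 secondary granule, 2 of 13 late maturation and 2 of 19 inflammatory windows. Windows were matched by symbol for 10 of 12 secondary granule, 19 of 24 inflammatory, 21 of 25 interferon-stimulated and 13 of 16 late maturation genes. These are matches of letters, not measured binding.

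Genes of the late, mature stage were near saturation. Their list, which includes Mmp9, Fpr1 and Slpi, was past the threshold in 97.7% to 99.6% of neutrophils of every library. Slpi, a protease inhibitor, stood at 2720, 2867 and 3390 CPM in Smad4fl/fl and at 2723, 3269, 3436 and 2940 CPM in Smad4iko. Of 16 genes tested, 9 were higher and 7 lower on average, with a median log2 difference of 0.10. Lrg1, a secreted leucine-rich glycoprotein, and Pglyrp1, a peptidoglycan-binding protein, were the 2 that lay higher without overlap, beside 2.81% of all tested genes. Pglyrp1 stood at 535, 903 and 936 against 1017, 1240, 1381 and 1247 CPM.

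The ageing and tissue residence list was past the threshold in 18.8%, 19.6% and 28.6% of Smad4fl/fl neutrophils and in 9.68%, 5.65%, 13.5% and 20.4% of Smad4iko neutrophils. The groups overlapped through Smad4iko 4, and the exact permutation p was 0.114 (adjusted p = 0.233). Of 10 genes, 6 were lower and 4 higher on average, and 4 lay lower without overlap, beside 5.03% of all genes tested. Cd274, the checkpoint ligand PD-L1, stood at 419, 171 and 454 against 168, 125, 78.4 and 85.4 CPM. Cxcr4, a bone marrow retention receptor that returns to the surface of ageing neutrophils, stood at 536, 731 and 517 against 502, 393, 370 and 479 CPM. Itgax, the integrin CD11c, stood at 140, 111 and 114 against 94.4, 49.8, 58.4 and 86.8 CPM. Siglecf, a lectin of eosinophils and of some tissue neutrophils, went the other way at 7.64, 4.68 and 8.11 against 14.2, 10.1, 15.02 and 11.7 CPM. Siglecf without the 262 cells stood at 8.57, 5.41 and 6.39 against 10.7, 7.72, 13.4 and 9.23 CPM, which overlapped.

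The inflammatory and NF-kB list made up a smaller part of neutrophil RNA in every Smad4iko library. By the percent of UMIs, the alternative added after the data were seen, it took 5.21%, 4.52% and 6.02% in Smad4fl/fl and 3.61%, 3.27%, 3.67% and 3.503% in Smad4iko. The groups did not overlap, and the exact permutation p was 0.0286, the smallest possible, with an adjusted p of 0.0667 over the 7 lists. With S100a8 and S100a9 taken out of the total, the means were 5.69% and 4.25%, again without overlap. A percent of UMIs is weighted by abundant genes, and Cxcl2 and Il1b were the most abundant of the list in every library. Cxcl2 alone stood at 23452 CPM in Smad4fl/fl 1 and at 8313 to 13229 CPM in Smad4iko. The separation of the list without Cxcl2 was not tested. By the planned measure, cells past the threshold, 96.5% to 100% of neutrophils passed in each library, and the exact permutation p was 0.200 (adjusted p = 0.233). T cells devoted 0.192% to 0.296% of their UMIs to this list.

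Of the 24 inflammatory genes, 23 were lower on average in Smad4iko, with a median log2 difference of -0.69, but only Cxcl2 did so without overlap. That count is near the background, since 5.03% of all tested genes lay lower without overlap. Cxcl2, a neutrophil-attracting chemokine, stood at 23452, 15590 and 16561 CPM against 13229, 12633, 10795 and 8313 CPM. Ccl3, a chemokine for monocytes and other leukocytes, stood at 4131, 435 and 822 against 765, 338, 154 and 238 CPM, with Smad4fl/fl 1 far above the rest. Nlrp3, the inflammasome sensor, stood at 2293, 1283 and 3194 against 1328, 1133, 1115 and 1038 CPM. Tnfaip3, the feedback inhibitor A20, stood at 614, 640 and 1398 against 365, 373, 440 and 653 CPM. Nfkbia, which encodes the inhibitor that holds NF-kB in the cytoplasm, stood at 5051, 2425 and 5690 against 3490, 3056, 2084 and 1954 CPM.

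Il1b departed from this. It stood at 6410, 14747 and 17513 CPM in Smad4fl/fl and at 8465, 8401, 13278 and 14439 CPM in Smad4iko, and the lowest and highest library were both Smad4fl/fl. Its log2 difference was -0.15 ± 0.38 (SE; edgeR adjusted p = 0.937), and it was 0.31 without Smad4fl/fl 3.

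Interferon-stimulated genes were most abundant in Smad4iko 1 and 2. Their list was past the threshold in 26.6%, 29.8% and 21.2% of Smad4fl/fl neutrophils and in 45.8%, 70.1%, 24.0% and 32.9% of Smad4iko neutrophils. Smad4iko 3 lay inside the Smad4fl/fl range, and the exact permutation p was 0.200 (adjusted p = 0.233). T cells passed at 2.38% to 4.33%. Isg15, a ubiquitin-like protein, stood at 674, 788 and 592 against 1322, 1860, 403 and 448 CPM. Rtp4 stood at 172, 223 and 181 against 398, 612, 160 and 223 CPM. In both genes Smad4iko 1 and 2 were high and Smad4iko 3 and 4 were not. Rsad2, whose promoter window is shown above, stood at 42.0, 112 and 99.1 against 97.3, 133, 42.0 and 78.6 CPM, which overlapped. Its log2 difference was 0.22 ± 0.50 (SE; edgeR adjusted p = 0.930). Oasl2, an oligoadenylate synthetase relative, and Ifitm3, a membrane protein that restricts viral entry, were the 2 of 23 tested genes that lay higher without overlap, beside 2.81% of all tested genes. Oasl2 stood at 131, 212 and 217 against 274, 467, 269 and 315 CPM, and Ifitm3 at 1039, 1021 and 636 against 1450, 2867, 1272 and 1240 CPM. On average 21 of the 23 were higher in Smad4iko, with a median log2 difference of 0.68.

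Immediate early genes, which respond within minutes to stimulation and to tissue dissociation, separated Smad4iko 3 and 4 from Smad4iko 1 and 2. By the planned measure 96.3% to 100% of neutrophils were past the threshold, with an exact permutation p of 0.171 (adjusted p = 0.233). By the added measure the list took 2.51%, 2.58% and 2.57% of UMIs in Smad4fl/fl and 1.60%, 1.40%, 2.57% and 2.69% in Smad4iko. T cells moved with it, at 0.675%, 0.685% and 0.764% against 0.519%, 0.560%, 0.827% and 0.794%. The part of dissociation in these values was not tested. Fos stood at 694, 2845 and 2071 against 700, 661, 3979 and 3942 CPM. Junb stood at 2224, 3559 and 3146 against 1540, 1362, 5064 and 5466 CPM. Their log2 differences of 0.31 and 0.20 turned to -1.20 and -0.77 with a covariate for Smad4iko 3 and 4. Dusp1 stood at 2716, 4086 and 3430 against 1926, 1531, 3502 and 4231 CPM, and Klf2 at 2548, 873 and 984 against 583, 650, 854 and 973 CPM.

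Heat shock genes were past the threshold in 34.4%, 19.6% and 32.8% of Smad4fl/fl neutrophils and in 15.7%, 11.3%, 16.8% and 17.96% of Smad4iko neutrophils. The groups did not overlap, and the exact permutation p was 0.0286, with an adjusted p of 0.200. Thinned to 1000 UMIs, or with a threshold of 2 UMIs, they overlapped, with an exact permutation p of 0.0571 in both settings. With a threshold of 5 UMIs, and as a percent of UMIs, they did not overlap. T cells passed at 53.4% to 72.4%, above the neutrophils of every library, and their order across libraries differed. All 13 genes tested were lower on average in Smad4iko, with a median log2 difference of -0.55 that was -0.85 without the clusters led by other cell types. The 4 without overlap were Hsp90ab1, Hsph1, Hspd1 and Dnaja1, beside 5.03% of all tested genes that lay lower without overlap. When the 262 cells were left out, 2 of 13 lay lower without overlap, beside 6.15% of genes, and Hsph1, at 21.4, 6.18 and 1.94 against 2.53, 2.57, 1.46 and 0.401 CPM, and Hspd1, at 31.1, 25.5 and 14.4 against 14.6, 7.59, 7.79 and 11.6 CPM, overlapped. Hsp90ab1, a chaperone, stood at 721, 408 and 419 against 361, 200, 295 and 342 CPM, beside 1341 to 2294 CPM in T cells.

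**Figure D2:**
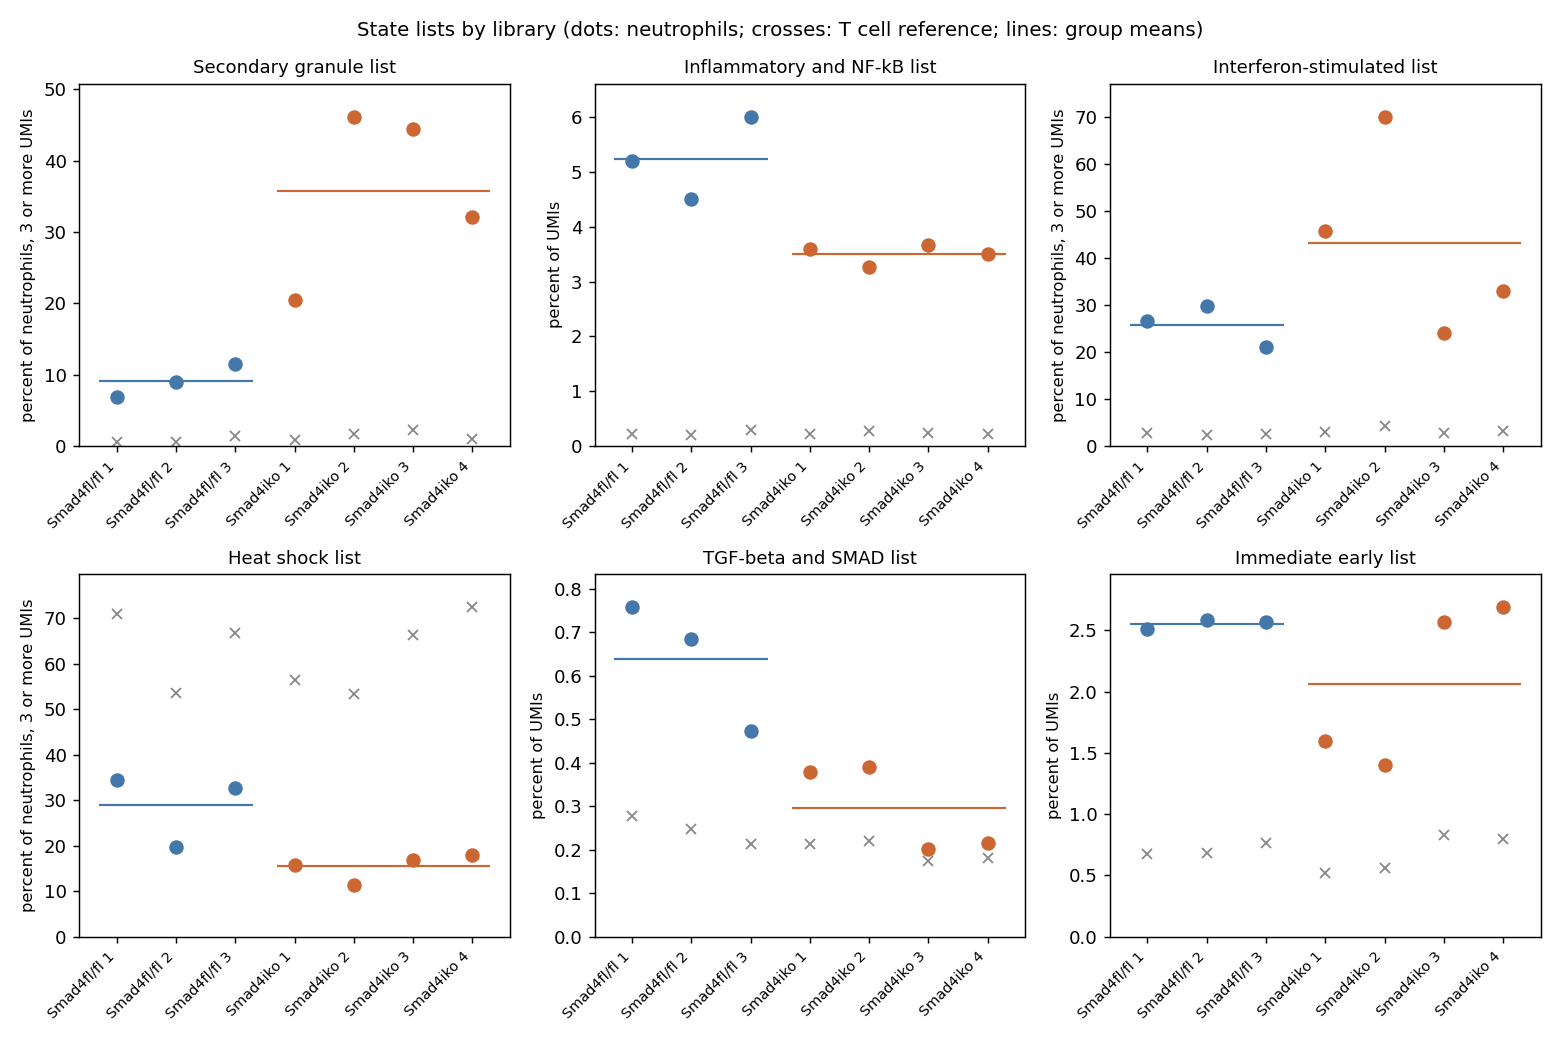
Levels of 6 gene lists in neutrophils of each library (dots) and in T cells of the same library (crosses), as percent of cells with 3 or more list UMIs among 600 or as percent of UMIs. Lines are group means. The secondary granule list is higher and the inflammatory list lower in all 4 Smad4iko libraries, and the immediate early list is split within Smad4iko.

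Single genes were compared by summing the UMIs of each library's neutrophils and fitting all genes with edgeR's quasi-likelihood test. Of 9237 genes tested, 0 (0%) had an adjusted p under 0.05, the lowest adjusted p being 0.262. At an unadjusted p under 0.05 there were 767 genes, 339 (3.67%) higher and 428 (4.63%) lower in Smad4iko. DESeq2 called 43 of 7635 genes with an adjusted p (0.563%), 33 higher and 10 lower. In simulated counts of the same libraries the edgeR test recovered 3.1% of the 2-fold changes and 57% of the 4-fold changes, so a 2-fold change would usually not be called. Smad4 itself stood at 44.0, 63.5 and 65.1 CPM in Smad4fl/fl and at 42.4, 46.3, 38.3 and 52.5 CPM in Smad4iko, which overlapped, with a log2 difference of -0.25 ± 0.26 (SE; edgeR adjusted p = 0.810). T cells of the same libraries held 122, 126 and 123 CPM of Smad4 against 83.0, 82.2, 54.7 and 66.8 CPM, without overlap. The cause of that difference, and of its contrast with neutrophils, was not tested. The labels do not name the floxed part, and 3' tags may count Smad4 RNA with or without it. The level in neutrophils therefore does not check the deletion.

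The genes with the smallest unadjusted p and no overlap between the groups are given as values, not as calls. Among the 10 higher ones, Wfdc17 stood out in size. It encodes a small secreted whey acidic protein family member, and it stood at 226, 267 and 323 CPM in Smad4fl/fl and at 1632, 7374, 3885 and 3594 CPM in Smad4iko. Its log2 difference was 4.11 ± 0.62 (SE; edgeR adjusted p = 0.262; DESeq2 adjusted p = 4.37e-11), between 3.46 and 4.43 when any 1 library was left out. T cells held 3.53 to 131 CPM. Wfdc17 has a close relative, Wfdc18, so the division of reads between the pair is uncertain. Wfdc17 lies on chromosome 11 at 83703991 to 83706268 (GRCm38, GENCODE M21), and Wfdc21 nearby at 83746940 to 83752642.

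Wfdc21 stood at 319, 628 and 630 CPM against 1298, 2995, 2666 and 2358 CPM, a log2 difference of 2.28 ± 0.44 (SE). Lrg1 stood at 295, 312 and 468 against 989, 1595, 1580 and 1048 CPM, a difference of 2.00 ± 0.38. Ifitm6, an interferon-induced transmembrane family member of myeloid cells, stood at 45.9, 75.5 and 98.3 against 225, 317, 269 and 358 CPM. Gcnt1, a glycosyltransferase that builds selectin ligands, stood at 28.7, 34.1 and 21.1 against 71.1, 72.5, 59.9 and 73.4 CPM. Atp6v0a1, a subunit of the vacuolar proton pump, stood at 14.3, 18.7 and 19.4 against 34.3, 36.5, 48.4 and 55.6 CPM. In all 5 genes the highest Smad4fl/fl library lay below the lowest Smad4iko library.

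The remaining higher genes had smaller differences when the 262 cells were left out. Ear2, a ribonuclease of alveolar macrophages and eosinophils, stood at 40.1, 57.5 and 51.1 against 211, 111, 172 and 172 CPM. Without the 262 cells in clusters led by other cell types it stood at 26.8, 18.5 and 13.9 against 27.6, 13.6, 30.2 and 19.3 CPM, which overlapped, and its log2 difference was 0.38 in place of 1.83. The related Ear10 went from a log2 difference of 2.09 to 0.88 on the same comparison, and without those cells stood at 11.8, 3.09 and 6.11 against 10.1, 6.30, 15.1 and 14.8 CPM, which overlapped. Ctss, cathepsin S, stood at 88.9, 85.6 and 107 against 220, 198, 219 and 223 CPM, beside 107 to 259 CPM in T cells. Ctss without the 262 cells stood at 65.3, 55.6 and 49.4 against 96.7, 128, 90.1 and 84.7 CPM, still without overlap. Its log2 difference was then 1.00 in place of 1.30.

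Among the 10 lower genes, Ccrl2 was the most abundant. It encodes a non-signalling receptor that binds chemerin, and it stood at 4424, 3845 and 5833 CPM against 1902, 1245, 2261 and 2082 CPM. Its log2 difference was -1.25 ± 0.27 (SE; edgeR adjusted p = 0.406). Gadd45b, a stress-response gene, stood at 4286, 2109 and 3381 against 1676, 937, 1388 and 1275 CPM. Vegfa, the endothelial growth factor, stood at 182, 156 and 83.1 against 60.5, 31.8, 46.9 and 33.3 CPM. Pim3, a survival kinase, stood at 70.7, 79.6 and 38.6 against 21.3, 14.8, 22.0 and 21.3 CPM. In each of these the lowest Smad4fl/fl library lay above the highest Smad4iko library.

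Plk2, a kinase of the stress response, stood at 741, 448 and 659 against 330, 251, 240 and 316 CPM. Ctnnb1, beta-catenin, stood at 863, 423 and 339 against 159, 132, 258 and 231 CPM, and Ulk4, a kinase-like gene, at 127, 48.1 and 24.3 against 13.5, 15.6, 9.06 and 7.55 CPM. Their annotated ends overlap on opposite strands of chromosome 9 (Ctnnb1 at 120929216 to 120960507, Ulk4 at 120955351 to 121277197), so reads in the shared stretch are uncertain. H2-Q7, a nonclassical class I gene with near-identical copies, stood at 46.8, 45.5 and 69.8 against 23.8, 15.7, 25.1 and 29.5 CPM, beside 224 to 566 CPM in T cells. H2-Q7 without the 262 cells stood at 10.7, 6.18 and 43.9 against 9.28, 6.95, 7.06 and 8.03 CPM, which overlapped. Epb41 and Zbtb1 were also higher in T cells than in neutrophils of every library.

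**Figure D3:**
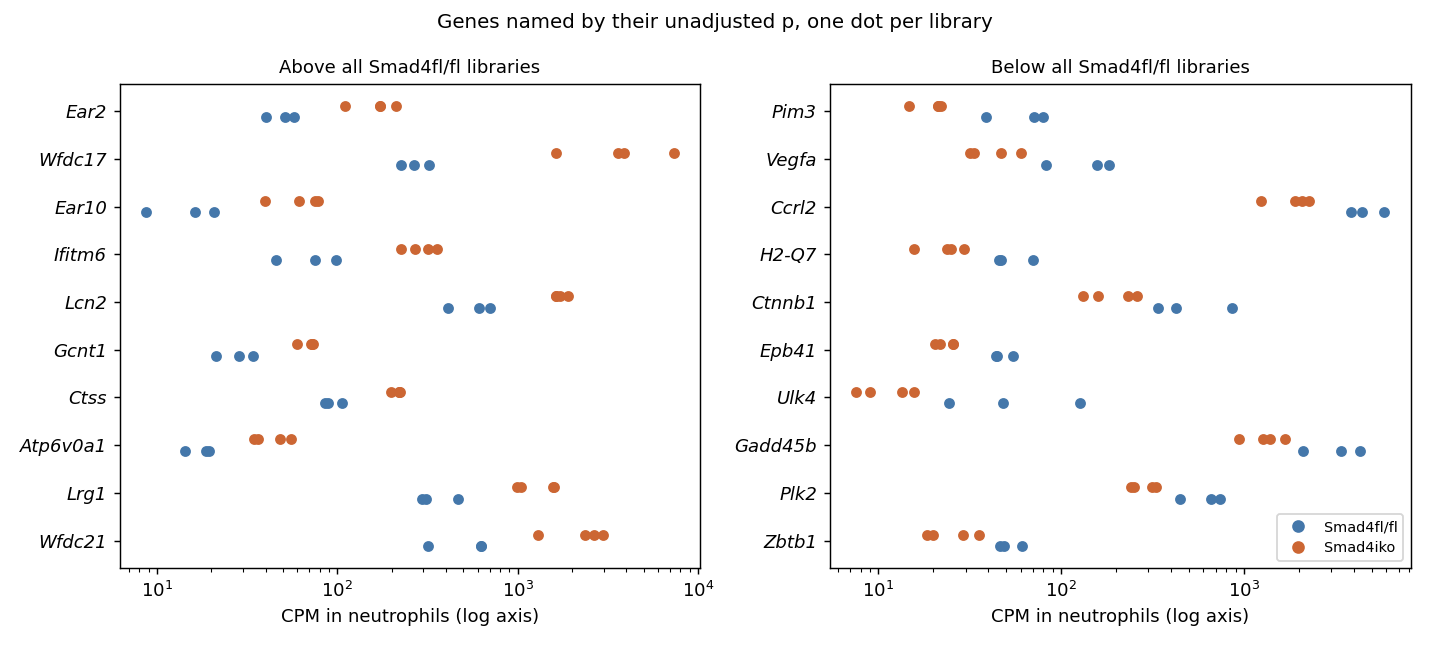
CPM of the 20 genes with the smallest unadjusted p and no overlap between the groups, 10 in each direction, with 1 dot per library on a log axis. Wfdc17 shows the widest gap, from 323 CPM in the highest Smad4fl/fl library to 1632 CPM in the lowest Smad4iko library.

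Genes of the TGF-beta and Smad pathway were a smaller part of neutrophil RNA in Smad4iko. The list took 0.757%, 0.685% and 0.472% of UMIs in Smad4fl/fl and 0.378%, 0.389%, 0.202% and 0.214% in Smad4iko, without overlap. T cells moved the same way, at 0.278%, 0.247% and 0.212% against 0.213%, 0.221%, 0.174% and 0.180%, with an overlap of the groups, and the part of a source shared by both cell types was not tested. Thbs1, thrombospondin-1, which can activate latent TGF-beta, stood at 5078, 4959 and 2717 against 2140, 2462, 409 and 594 CPM. It was 56.7% to 72.4% of the list in the Smad4fl/fl libraries and Smad4iko 1 and 2, but 20.2% and 27.7% in Smad4iko 3 and 4. Of 25 genes tested, 20 were lower and 5 higher on average, with a median log2 difference of -0.25, and 4 lay lower without overlap (Smad3, Skil, Tgif1 and Thbs1), beside 5.03% of all tested genes. Smad3, the receptor-activated partner of Smad4 for TGF-beta, stood at 36.3, 20.1 and 20.9 against 12.01, 9.24, 7.41 and 13.04 CPM. Tgif1, a repressor of Smad target genes, stood at 708, 378 and 558 against 375, 271, 231 and 180 CPM, and Skil, a TGF-beta target that restrains Smads, at 305, 272 and 356 against 247, 240, 192 and 161 CPM. Tgfb1, the ligand, stood at 65.9, 90.9 and 106 against 58.8, 38.1, 108 and 115 CPM and overlapped. None passed the edgeR test.

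Effector and receptor genes mostly overlapped. Of 6 NADPH oxidase genes, which make superoxide, 0 were without overlap. Rac2, its regulatory GTPase, stood at 442, 683 and 788 against 734, 884, 1091 and 904 CPM, and Cybb, the catalytic subunit, at 22.9, 68.2 and 117 against 142, 83.5, 147 and 161 CPM. Of 10 chemoattractant receptors, 1 lay higher and 2 lower without overlap, beside 2.81% and 5.03% of all tested genes. Those lower were Cxcr4 and Ccrl2, whose values are given with the ageing list and the lower genes. Ltb4r1, the leukotriene B4 receptor, lay higher without overlap, at 22.0, 31.4 and 58.5 against 74.3, 104, 91.8 and 70.3 CPM. Of 16 pattern and Fc receptors, Fcgr3 alone lay higher without overlap, beside 2.81% of all tested genes, at 280, 315 and 323 against 430, 463, 383 and 398 CPM. Cd14, the lipopolysaccharide co-receptor, was split within Smad4iko, at 5902, 7714 and 7819 against 10172, 9157, 3711 and 3024 CPM. Of 11 adhesion genes none was without overlap, and Selplg, the selectin ligand, stood at 352, 720 and 725 against 606, 622, 958 and 987 CPM.

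Glycolysis genes lay on the higher side. Of 17 glycolysis and hypoxia genes, 14 were higher and 3 lower on average, with a median log2 difference of 0.49, and Pgk1, Eno1, Gapdh and Aldoa were higher without overlap, beside 2.81% of all tested genes. Vegfa, of the same list, was lower without overlap. Gapdh stood at 666, 633 and 701 against 976, 1310, 1336 and 935 CPM, a log2 difference of 0.92 ± 0.29 (SE; edgeR adjusted p = 0.556). Aldoa stood at 272, 316 and 305 against 353, 403, 591 and 423 CPM. Of 17 apoptosis and survival genes, Bcl2, Pmaip1 and Gadd45b lay lower and Bak1 higher without overlap, beside 5.03% and 2.81% of all tested genes. With the 262 cells left out, Bcl2, at 14.994, 2.32 and 6.94 against 5.34, 5.79, 2.19 and 4.82 CPM, and Bak1, at 2.14, 5.41 and 5.28 against 5.34, 5.27, 12.9 and 11.6 CPM, overlapped. Pmaip1, the death promoter Noxa, stood at 262, 142 and 125 against 93.1, 56.0, 108 and 101 CPM, and Bcl2l11, the death promoter Bim, at 801, 425 and 678 against 540, 477, 181 and 186 CPM. Of 11 genes of the MHC class I and II list, H2-K1 and H2-D1 lay lower without overlap, beside 5.03% of all tested genes, with H2-K1 at 972, 762 and 1017 against 693, 494, 589 and 633 CPM.

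Smad4iko 3 and 4 stood apart from the other 5 libraries in several genes, by a rule that ranked the gap in log2 CPM. Thbs1 was the third below the range and Hilpda, a lipid droplet protein induced by hypoxia, the first, at 235 to 571 CPM in the other libraries and 43.6 and 41.2 CPM in Smad4iko 3 and 4. Above the range, the first 4 were hemoglobin genes, which neutrophils are not known for: Hbb-bt stood at 0 to 58.1 CPM in the other libraries and at 1812 and 1358 CPM in Smad4iko 3 and 4. T cells of Smad4iko 3 and 4 held 1002 and 376 CPM of Hbb-bt, and the summed erythroid markers in T cells ranged from 6.86 to 8559 CPM. Rara, a retinoic acid receptor, was the first gene of another kind, at 41.1 to 65.1 CPM in the other libraries and at 195 and 204 CPM in those 2.

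Clustering of the neutrophils, used as a description, gave 14 clusters, of which the larger ones followed libraries. Cluster 6 held 87.0% of Smad4fl/fl 1, cluster 5 held 76.9% of Smad4fl/fl 2 and cluster 3 held 84.9% of Smad4fl/fl 3. Clusters 0 and 2 together held most of Smad4iko 1 and 2, and clusters 1 and 4 most of Smad4iko 3 and 4. Each of clusters 0 to 6 lay mostly in libraries of 1 genotype, so cluster sizes give no comparison between them. Cluster 6 was led by Mgp and Gsn, genes of stromal cells, at 3922 and 2218 CPM. Fibroblast markers reached 773 CPM in neutrophils of 1 Smad4fl/fl library and up to 779 CPM in T cells.

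Within both pairs of Smad4iko libraries, neutrophils divided by inflammatory RNA. Of 600 UMIs, cells of cluster 0 held 30.4 on average from the inflammatory list and cells of cluster 2 held 11.6, and in the other pair cluster 4 held 36.2 and cluster 1 held 18.4. The secondary granule list ran the other way, at 1.89 and 3.24 UMIs in clusters 0 and 2 and at 2.16 and 2.84 in clusters 4 and 1. Cluster 2 was led by Dusp6 and Ly6g, the antigen that defines mouse neutrophils, at 259 and 404 CPM. Cluster 4 was led by Dusp2, Irf1 and Ptgs2. Across single cells, the secondary granule and inflammatory lists had Spearman correlations of -0.16, -0.29, -0.27 and -0.26 in Smad4iko 1 to 4 and of -0.01, -0.06 and -0.10 in Smad4fl/fl 1 to 3. In Smad4fl/fl 1 to 3 the secondary granule list averaged 0.705, 1.03 and 1.12 UMIs of 600 per cell, with a median of 0 in each. In Smad4iko 1 to 4 it averaged 2.25, 2.97, 3.10 and 3.02. The part of the low counts in the weaker Smad4fl/fl correlations was not tested. All these values are descriptions over cells that share a library, with no test.

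**Figure D4:**
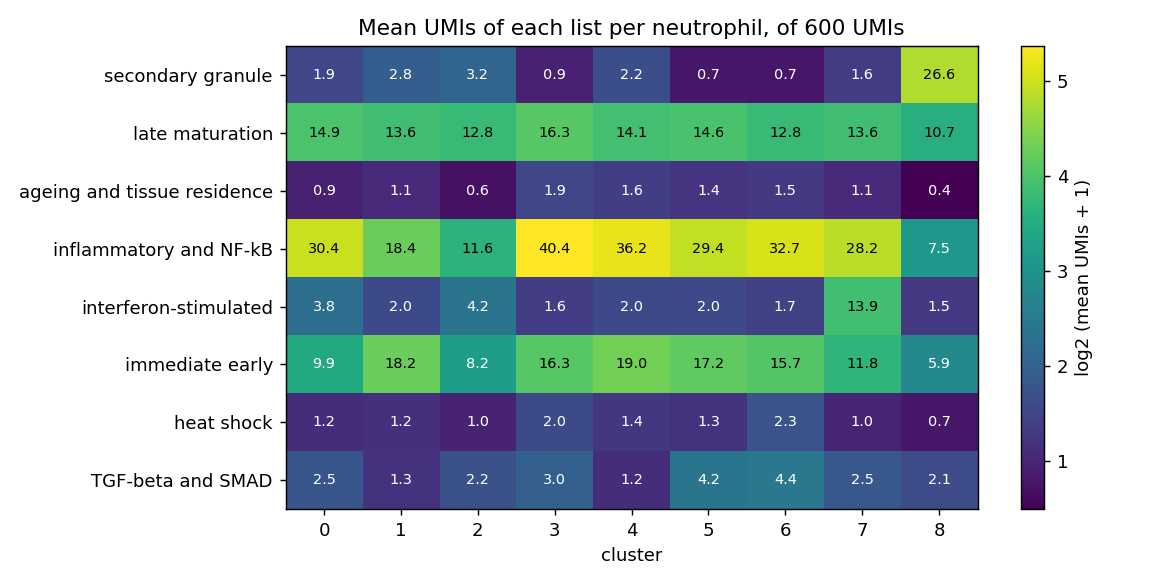
Mean UMIs of 8 gene lists per neutrophil, of 600 UMIs, in clusters 0 to 8, with the value printed in each cell and colour on a log2 scale. Cluster 8 stands apart in secondary granule genes and cluster 7 in interferon-stimulated genes.

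Of the small clusters, 2 had a clear program. Cluster 7, 199 cells, was led by Ifit3b, Ifit3, Ifit1 and Rsad2, genes induced by type I interferon, with Ifit1 at 1506 CPM against 60.9 CPM in the other neutrophils. It held 6.66% of Smad4iko 2 neutrophils and 0.340% to 2.64% of those in the other libraries. Cluster 8, 109 cells, was led by Camp, Ltf and Ngp, with Camp at 13642 CPM against 4.31 CPM elsewhere, and held 26.6 secondary granule UMIs of 600. Its cells had a median of 7204 UMIs and of 2657 UMIs of S100a8 plus S100a9. It held 0.325%, 1.498% and 0.881% of Smad4fl/fl neutrophils and 2.44%, 0.575%, 1.23% and 4.19% of Smad4iko neutrophils. Smad4iko 1 and 4, which held the highest summed Camp, also held the largest shares of this cluster. Lcn2 was not among its 8 leading genes.

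**Figure D5:**
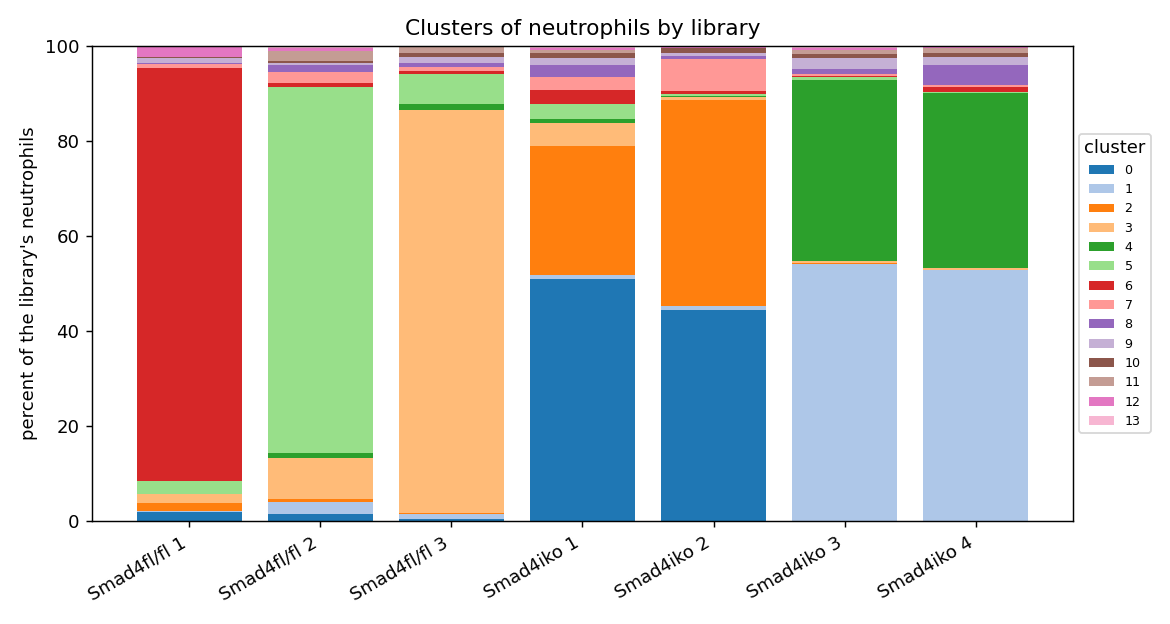
Percent of each library's neutrophils in each of 14 clusters. Clusters 3, 5 and 6 are each mostly 1 Smad4fl/fl library, clusters 0 and 2 are Smad4iko 1 and 2, and clusters 1 and 4 are Smad4iko 3 and 4.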

How the data were processed

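Gene by barcode UMI counts were deposited by the authors as raw whole numbers, 1 table per library, written by Cell Ranger 6.1.1 per the file headers; the submitters' processing notes name fastp, UMI-tools and mm10. Barcodes were filtered and neutrophils selected as the report states. Scrublet predicted doublets, which stayed in. Counts of each library's neutrophils were summed and fitted over genes with edgeR 4.0.16 (filterByExpr, TMM, quasi-likelihood test, genotype as the only term, Benjamini-Hochberg adjustment, all 7 libraries). P-values measure the spread between mice. Shares and state scores used exact permutation tests. T cells, the reference for free RNA, held at least 2 UMIs of Cd3d, Cd3e and Cd3g. Clusters came from scanpy 1.11.5 and leidenalg 0.10.2. The members, gene lists, motifs and tests were chosen with earlier results of these data known. This holds for the measures called planned too.

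Named genes were Smad4, genes of the lists, and, since fewer than 5 genes passed, the 10 per direction with the smallest unadjusted p among genes without overlap whose mean log2 CPM reached 5, leaving out sex-linked, mitochondrial, ribosomal, predicted, immunoglobulin and selection genes. List genes with values in the text were picked after their values were seen. Depth limits single low genes: 3 UMIs is the upper limit for a count of 0.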

Additional observations from a re-analysis of the deposited data

Results flagged for a closer look

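Of 85 sets of 4 Smad4iko values examined, 3 held a library far from the other 3, where chance flags about 1 in 20. All 3 were Smad4iko 2, the library with the most neutrophils. Its Ifitm3 level was 2867 CPM, against 1240 to 1450 CPM in the other Smad4iko libraries. Its Pim3 level was 14.8 CPM, against 21.3 to 22.0 CPM. Its Ctss level was 198 CPM, against 219 to 223 CPM.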

How the results depend on the processing

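The count of genes called by edgeR was 0, and it stayed 0 under every alternative but 3: without a filter on low counts it was 3, with a replicate block it was 1, and with DESeq2 in its place it was 43. The cause of these counts was not tested. Replicate numbers are shared by the groups, but same-numbered libraries deviated together in 2 of 3 pairs only (correlations 0.32, -0.17 and 0.26), so the numbers were not taken as pairs. The share of neutrophils kept its direction throughout, and its difference was 6.35 to 12.997 percentage points without any 1 library.

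Late maturation, a saturated list, turned from a difference of 0.22 points to -0.33 with at least 5 UMIs and to -0.11 as percent of UMIs, and ranged from -0.25 to 0.69 without any 1 library. No other state list turned. Of 69 genes with values, 6 turned under some alternative. Fos was -0.15 with the replicate block, -1.199 with a covariate for Smad4iko 3 and 4 and -1.20 without those libraries, and Junb was -0.21, -0.77 and -0.77. Cd14 was -0.038 with a sex covariate and -0.060 with an S100 minimum of 10, an alternative added after the data were seen. Without any 1 library Smad4 ranged from -0.41 to 0.020, Il1b from -0.47 to 0.31, Fos from -0.12 to 0.69, Junb from -0.090 to 0.42, Tgfb1 from -0.29 to 0.24 and Cd14 from -0.28 to 0.34. Neutrophils of Smad4fl/fl 1 gave the fewest UMIs, 1046567, so its low genes are the least precise.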
